A study of Drosophila melanogaster with 4 samples.

Results

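The telomere-side ends of 4 long chromosome arms of Drosophila melanogaster were described here by the peaks of TATA-binding protein (TBP) that lie in them. A peak belonged to an end when its centre lay below position 2000000 on 2L, 3L or X, or above position 25900000 on 3R, in FlyBase release 5. These limits use position only, but they were chosen with earlier results of these data known. They took in 530 of the 7769 peaks in the deposited list, with 131 on 2L, 180 on 3L, 99 on 3R and 120 on X. The 4 arms together held 5721 peaks, so the ends held 9.26% of the peaks of their arms. The ends span 8 Mb, and the arms 97.6 Mb from first to last peak, which gives 66.25 and 58.6 peaks per Mb. The telomere-side end of 2R is outside these limits and was not analysed here.

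TBP is the subunit of the general transcription factor TFIID that binds and bends the TATA element of promoters, an early step in the assembly of initiation complexes of RNA polymerase II. Chromatin immunoprecipitation and sequencing maps the places where it is cross-linked to DNA. The telomeres of this fly have no telomerase repeats. They are kept by arrays of telomeric retrotransposons, and between these arrays and the first genes of an arm lie telomere-associated sequences, which in most strains are built of tandem repeats and can silence a transgene inserted in them.

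The series has 4 libraries from embryos, 2 of chromatin precipitated with a rabbit polyclonal serum against TBP and 2 of input DNA. All 4 carry the labels strain Exd-GFP-13T, genotype w; PBac{y[+]-attP-3B}VK00033, stage Embryo 0-8, unknown sex, and a genomic extradenticle transgene tagged with GFP. The extraction text of the same samples instead describes y; bw cn sp flies and an 8 to 16 h collection, and the labels do not resolve this. The embryos were whole, so a peak is an average over all their tissues, and the deposited data are 1 list of peaks for all libraries. Depth per library is therefore unknown, no peak has a replicate error, and every interval or p-value below describes the arrangement of peaks within this list and not the spread between embryos.

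No release 5 sequence or annotation was used, so no peak was tied to a gene and no sequence is shown. For orientation only, the order of protein-coding genes from each tip was read from the RefSeq table of release 6. On 2L, l(2)gl, a tumour suppressor of cell polarity, came first from the tip, ush, which encodes a zinc finger partner of GATA factors, came at place 69, and S, a gene of epidermal growth factor signalling, at place 126. On X, the pigmentation gene y and the proneural genes ac and sc held places 20 to 22, and elav, a neuronal RNA-binding protein gene, place 36. On 3L, emc, which encodes an inhibitor of proneural HLH proteins, held place 86. On 3R, the nucleoside diphosphate kinase gene awd, the repressor gene ttk and the terminal gap gene tll held places 25, 31 and 112.

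TBP peaks were most crowded in the 3L end and sparsest in the 3R end. The 3L end held 90 peaks per Mb (95% exact Poisson interval 77.3 to 104), the 2L end 65.5 (54.8 to 77.7), the X end 60.0 (49.7 to 71.7) and the 3R end 49.5 (40.2 to 60.3). These intervals cover counting error only and are too narrow where peaks cluster. Cut into steps of 2 Mb from the tip, 3L had its highest count in its outermost step, with 180 peaks against 52 to 145 in the other 11 steps. On 3R the outermost step, with 99 peaks, ranked 12 of 13, where the others ran from 56 to 182. The 2L end ranked 4 of 11 (131 peaks, others 65 to 159) and the X end 5 of 11 (120 peaks, others 53 to 130), so both lay within the range of their own arms.

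**Figure D1:**
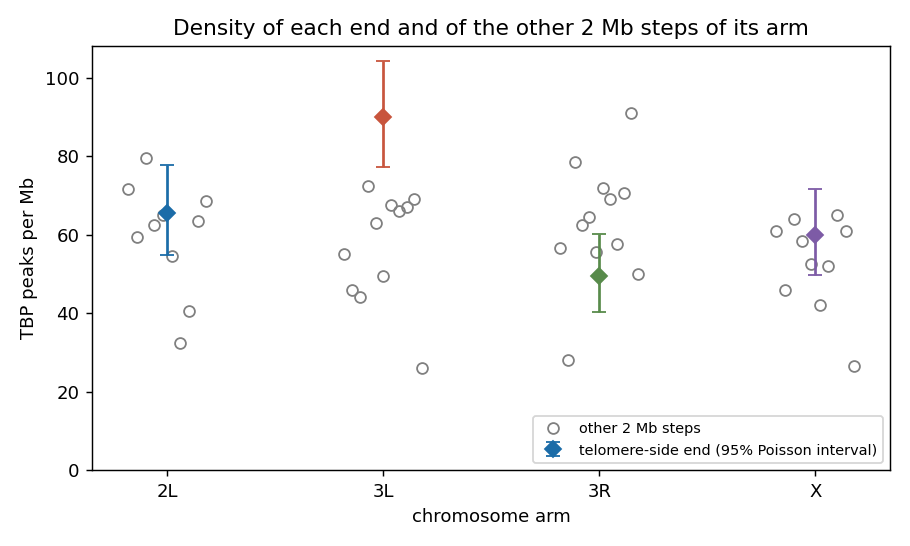
Peaks per Mb (vertical axis, from 0) in the telomere-side end of each arm (filled diamonds with 95% exact Poisson intervals) and in every other full 2 Mb step of the same arm (open circles, spread sideways in order from the tip). The 3L end, at 90 per Mb, lies above all other steps of 3L, whereas the 2L and X ends lie among the steps of their arms and the 3R end, at 49.5, lies near the bottom of its own.

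The ends were then set against the middle of the same arm, defined as the stretch from 33.3% to 66.7% of the way between its first and its last peak. Middles held 426 peaks on 2L (55.7 per Mb), 513 on 3L (63.1 per Mb), 607 on 3R (65.3 per Mb) and 359 on X (48.1 per Mb). A quasi-Poisson fit was made of peak counts in all 976 windows of 100 kb, with a dispersion of 3.85 for uneven counts between windows. Each end gave 20 of these windows and each middle 75 to 93. The fit takes windows as independent, so its intervals and p-values do not cover clustering that reaches across neighbouring windows. In this fit the 3L end had 1.43 times the density of its middle (95% interval 1.03 to 2.00). The difference did not pass the threshold of 0.05 after Benjamini-Hochberg adjustment over 4 arms (adjusted p = 0.14, n = 976 windows). The ratio was 1.24 on X (0.82 to 1.85, adjusted p = 0.41, n = 976 windows), 1.17 on 2L (0.80 to 1.72, adjusted p = 0.43) and 0.76 on 3R (0.50 to 1.15, adjusted p = 0.39). The ratios of 2L, 3L and X lie above 1 and that of 3R below it, but a difference between the 4 ratios did not pass either (F = 1.98 on 3 and 964 degrees of freedom, p = 0.12, n = 976 windows).

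For 3L the verdict turned on how the middle and the end were drawn. The ratio passed when the middle was the whole arm without 2 Mb at both ends (1.51, adjusted p = 0.032, n = 976 windows), with a middle from 25% to 75% (1.51, adjusted p = 0.049) or with the outermost 1 Mb as the end (1.73, adjusted p = 0.031). With an end of 3 Mb it was 1.13 (0.82 to 1.55, adjusted p = 0.51, n = 976 windows). An exact binomial test, which takes peaks as independent, called 3L (adjusted p = 0.00028) and 3R (0.76 times, adjusted p = 0.021).

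Between the ends themselves, the widest contrast was 3L over 3R, at 1.82 times (1.12 to 2.94). It missed the threshold after adjustment over 6 pairs of ends (adjusted p = 0.09, n = 976 windows in the fit, 20 of them in each end). With windows of 50 kb, which are likewise taken as independent, it passed (adjusted p = 0.036, n = 1954 windows in the fit). This contrast also passed by the exact binomial test, which takes peaks as independent. It missed with windows of 200 kb (interval 1.07 to 3.1) and with peaks within 1 kb merged (1.73 times). Among peaks above the median score the contrast missed as well, at 1.63 times (0.94 to 2.82). The 3L end had 1.5 times the density of the X end (0.95 to 2.36, adjusted p = 0.24, n = 976 windows), and the 2L end 0.73 times that of 3L (0.47 to 1.13, adjusted p = 0.32). The remaining ratios were 1.32 for 2L over 3R (0.79 to 2.21), 1.09 for 2L over X (0.67 to 1.78) and 0.83 for 3R over X (0.49 to 1.39), with adjusted p-values of 0.43, 0.72 and 0.56. The intervals are wide on both sides, so ratios from 0.79 to 2.21, from 0.67 to 1.78 and from 0.49 to 1.39 are compatible with these 3 pairs.

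The approach to the tip differed from arm to arm. On 2L the outermost 500 kb held 53 peaks, and the following 3 steps of 500 kb held 30, 26 and 22, so that counts fell with every step within the end. The fall did not go on beyond the limit, as the 2L step from 2 to 4 Mb held 143 peaks against 131 in the end. Median scores on 2L were 32.15, 28.61, 22.99 and 22.62 over the 4 steps of 500 kb, with the last 2 nearly equal. No test was run on counts or scores of these steps. On the other arms the median scores did not fall with every step. They were 22.3, 17.0, 28.4 and 48.2 on 3L, 29.1, 49.7, 22.6 and 17.0 on 3R, and 22.1, 31.7, 28.8 and 31.3 on X. On 3R the outermost step, with 43 peaks, held more than each of the following steps, with 15, 20 and 21. On X the order was the opposite, with 22 peaks in the outermost step and 33, 29 and 36 further in. On 3L the second step was the fullest, at 61, after 48 in the outermost step and before 31 and 40.

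**Figure D2:**
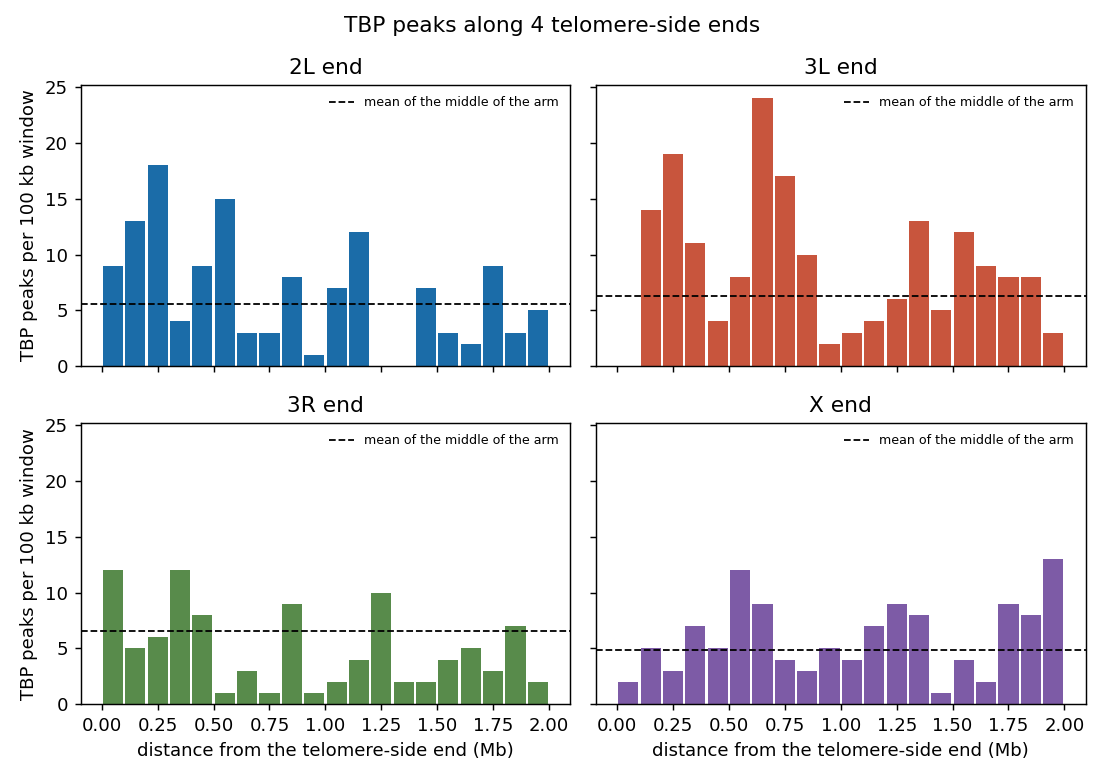
TBP peaks per 100 kb window (vertical axis) against the distance from the telomere-side end in Mb (horizontal axis) for the 4 ends, with a dashed line at the mean of the windows in the middle of the same arm. The 2L windows reach 18 near the tip, and 2 adjacent windows further in are empty. The outermost window of 3L is empty, 3R starts with 12 peaks and then stays mostly below its dashed line, and X starts with 2.

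The outermost 100 kb shows how unlike the tips are. The first peak of 2L starts at 17887, that of X at 23635 and that of 3L only at 123816, whereas the last peak of 3R ends at 27904648, beyond the nominal end of 27900000 from which distances on 3R were counted. Within 100 kb of the tip lay 9 peaks on 2L, 2 on X, 0 on 3L and 12 on 3R. The 12 on 3R were counted from 27900000 and include 5 peaks beyond it. The 3 outermost peaks of 2L, at 2L:17887-19170, 2L:19554-19886 and 2L:20601-22055, had scores of 64.86, 14.15 and 64.31. On X the 3 outermost, at X:23635-24036, X:72192-72637 and X:139536-140393, had scores of 10.96, 22.25 and 45.78. On 3L the series opened with 3L:123816-124331, 3L:128432-129850 and 3L:130790-132717, which scored 12.95, 57.89 and 67.62. The score is the authors' own value for each peak. No source used here gives its scale, and it serves only to rank and describe peaks of this list.

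The extreme tip of 3R carried a row of 6 evenly spaced TBP peaks. They start at 27899124, 27900103, 27901076, 27902058, 27903063 and 27904044, and the last ends at 27904648. From start to start the 5 steps measured 979, 973, 982, 1005 and 981 bp, with a mean of 984 ± 12.2 bp (SD over steps). The peaks were of nearly the same width, from 577 to 677 bp with a mean of 606 ± 37.5 bp (SD over peaks), and their scores ran from 27.94 to 42.58. Together they covered 65.8% of 5525 bp. The next peak inward, at 3R:27897130-27897655, started 1994 bp before the start of the first of them, was 526 bp wide and scored 15.08. Among 5701 overlapping stretches of 6 consecutive peaks on the 4 arms, 6 had steps that all lay within 10% of one another. Stretches that share peaks were counted singly, so these 6 need not be separate rows. The 3R tip was 1 of these 6, and the other 5 lay together on 2L between 21486237 and 21535348, far from any of the ends. The row was noticed after the positions had been seen, and the sequence beneath it was not examined. No source used here says how reads that map to several places were treated. Without these 6 peaks the 3R end to middle ratio was 0.71 (adjusted p = 0.24, n = 976 windows).

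**Figure D3:**
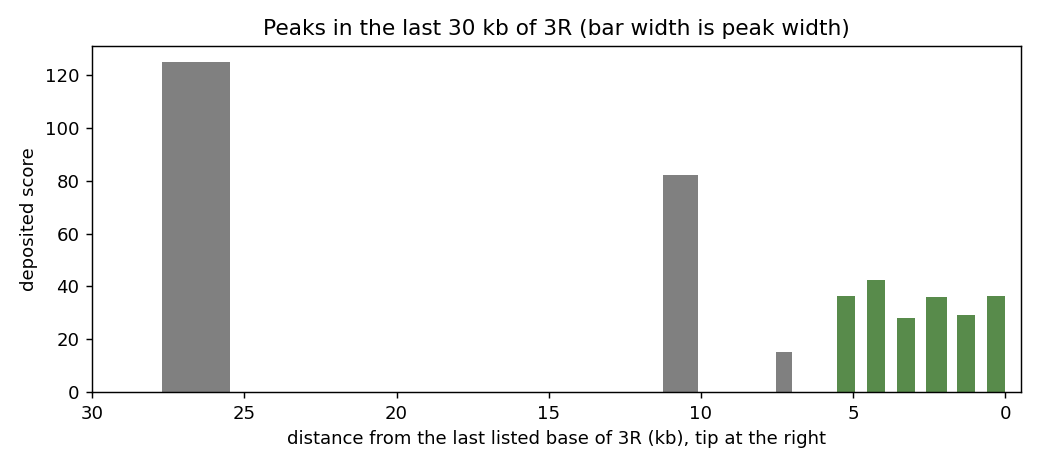
Deposited score (vertical axis) of the peaks in the last stretch of 3R against distance from its last listed base in kb (horizontal axis, tip at the right), where each bar is as wide as its peak. The 6 green bars at the right stand at steps of 973 to 1005 bp with scores of 27.94 to 42.58. Of the grey bars further in, the nearest starts 1994 bp before the first green bar and the highest reaches 124.67.

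TBP peaks of the ends ranged from 201 to 5552 bp in width. Median width in the end and in the middle was 746 bp (95% interval of the median 614 to 902) and 675.5 bp (620 to 780) on 2L, and 690.5 bp (550 to 922) and 690 bp (582 to 758) on 3L. It was 613 bp (522 to 882) and 696 bp (633 to 763) on 3R, and 696.5 bp (539 to 893) and 640 bp (562 to 754) on X. On each arm the 2 intervals overlapped, although with the outermost 1 Mb of 2L as the end its median was 1.32 times that of the middle. Peaks of at least 2000 bp made up 8.81% of all peaks on the 4 arms. In the ends they numbered 15 of 131 on 2L, 10 of 180 on 3L, 12 of 99 on 3R and 8 of 120 on X, or 45 of 530 (8.49%). The 3L end, the densest, had the smallest such share, at 5.56% (exact binomial interval 2.70 to 9.98), and its widest peak reached 2996 bp, against 4398 to 5552 bp in the other ends.

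Scores of the end peaks ran from 6.1 to 400.63 and rose with width (Spearman's rho from 0.823 to 0.866 across the peaks of an end, which are not independent). Median score in the end and in the middle was 26.09 (95% interval 21.88 to 32.58) and 27.71 (24.13 to 30.48) on 2L, and 26.04 (19.39 to 32.58) and 27.22 (24.50 to 30.48) on 3L. It was 27.94 (21.88 to 36.94) and 28.43 (24.88 to 32.15) on 3R, and 29.24 (23.74 to 36.94) and 24.12 (22.25 to 28.02) on X, again with overlapping intervals on each arm. With the outermost 1 Mb of 3L as the end, however, its median score was 0.687 times that of the middle. No test was run on these medians, because peaks of 1 list are not replicates. At or above the 90th percentile of score on the 4 arms, 87.96, lay 10.1% of their peaks. In the ends 49 peaks did so, or 9.25%, with 16 on 2L, 16 on 3L, 8 on 3R and 9 on X. Peaks scoring below 20 made up 45.0% of the 3L end, 38.2% of the 2L end, 37.4% of the 3R end and 30% of the X end, against 36.9% to 40.1% in the 4 middles.

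**Figure D4:**
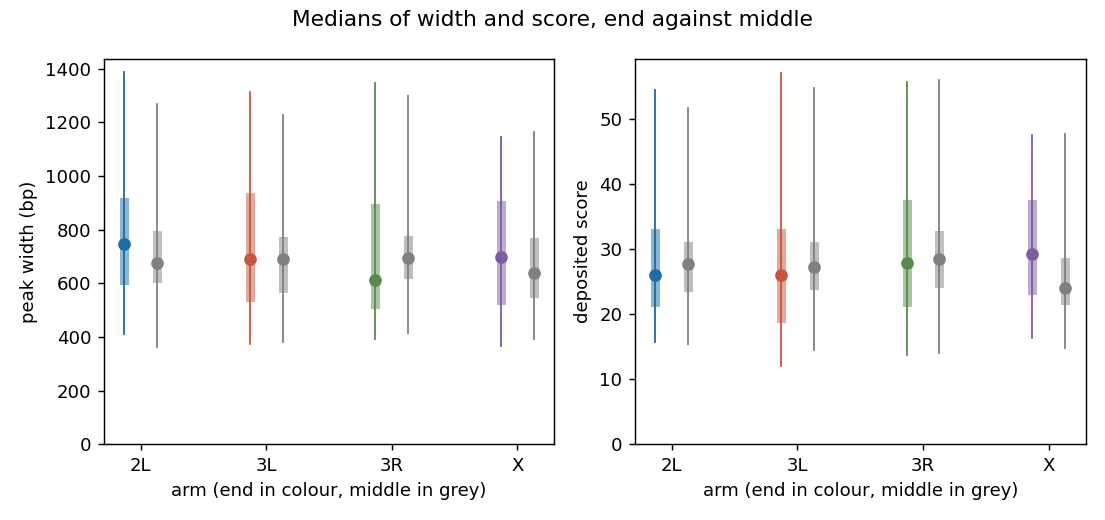
Median peak width in bp (left) and median deposited score (right) in the end (colour) and the middle (grey) of each arm, with thick bars for the 95% interval of the median and thin lines from the 25th to the 75th percentile. The thick bars of end and middle overlap on every arm, and the lowest and highest median widths of the ends are 613 and 746 bp.

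Although the bulk of the scores was ordinary, the strongest TBP peak of the whole list lay in the 3L end. This peak, 3L:747913-750579, scored 400.63 over 2667 bp. Within about 50 kb of it lay 3L:697554-700340, which scored 230.14 and ranked 16 among the peaks of the 4 arms, and 3L:222711-225413 followed at 202.13 (rank 46). After these came 3L:505420-506406 at 128.08 and 3L:319037-320639 at 125.02. Of the 50 highest scores on the 4 arms, 4 lay in the ends (8%, against 9.26% of all peaks of these arms), 3 of them on 3L and 1 on 2L.

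The other ends had lower maxima. On 2L the highest score was 225.24, at 2L:1419261-1421763 (rank 21), a 2503 bp peak shortly inward of the longest empty stretch of that end. The 2L peaks that followed were 272814 to 274641 (139.38), 573825 to 575211 (131.72), 419029 to 421890 (130.24) and 901314 to 901909 (128.08), of which the last was only 596 bp wide. On X the maximum was 164.49, at X:1934741-1936727, followed by peaks starting at 1833595 (142.02), 1126543 (139.90), 548260 (131.53) and 380877 (118.60). On 3R it was 159.27, at 3R:27046185-27048728, followed by peaks starting at 27569059 (142.72), 27876946 (124.67), 27421267 (117.93) and 27283604 (108.71). None of the 5 highest peaks of X or 3R was among the 50 highest of the 4 arms.

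**Figure D5:**
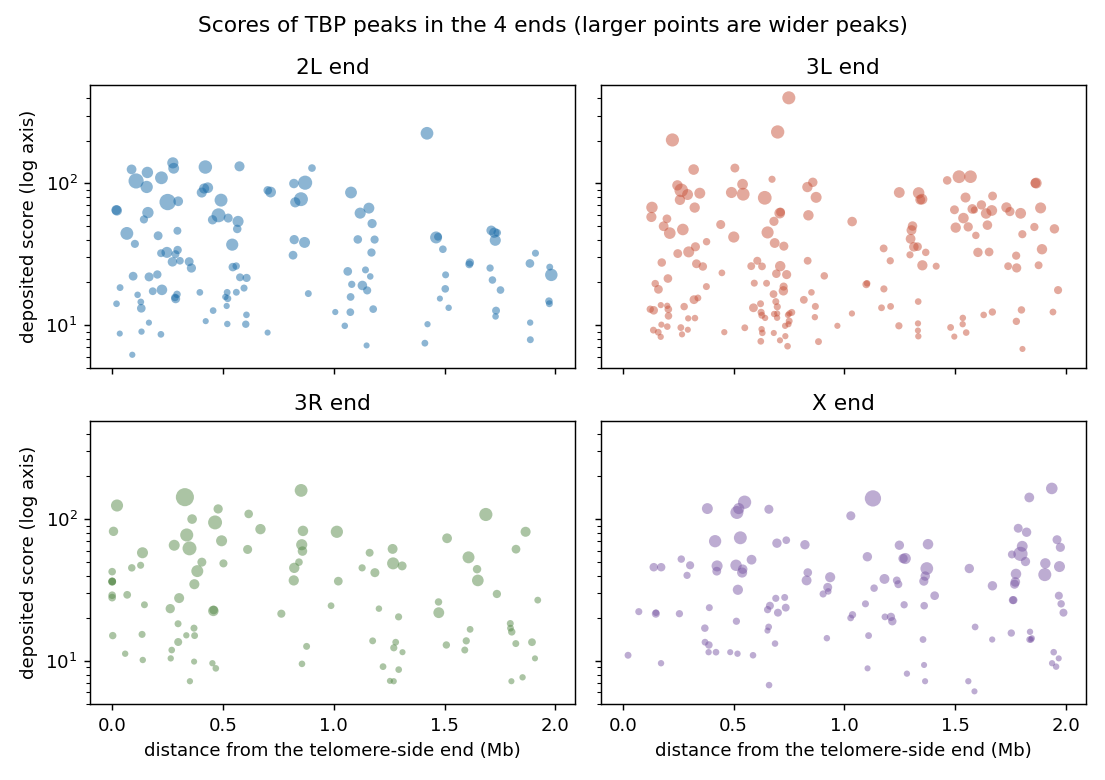
Deposited score on a log axis (vertical) against distance from the telomere-side end in Mb (horizontal) for every peak of the 4 ends, with larger points for wider peaks. The 3L end shows 3 points above 200, the 2L end 1, and the X and 3R ends none, with maxima of 164.49 and 159.27.

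The widest TBP peak of any end was on 3R. It spanned 5552 bp at 3R:27569059-27574610, ranked 10 in width among the 4 arms and was also the second strongest peak of its end. A 3104 bp peak lay less than 20 kb from it, at 3R:27549492-27552595 (score 62.15), and a 3105 bp peak at 3R:27434127-27437231 (94.71). On 2L the widest were 2L:248172-252619 (4448 bp, score 73.76), 2L:106163-109914 (3752 bp, 103.9) and 2L:868989-872199 (3211 bp, 101.0). On X they were X:1126543-1130940 (4398 bp, 139.9), X:1792822-1796068 (3247 bp, 56.85) and X:548260-551032 (2773 bp, 131.53). The 3 widest of 3L, at 639171 (2996 bp), 262366 (2914 bp) and 697554 (2787 bp), were narrower than the 3 widest of 2L and than the widest of X and 3R.

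Dense windows were not rare in the ends, and empty ones were few. A window of 100 kb was called dense from 12 peaks upward, which 11.7% of the windows of the 4 arms reached. In the ends 14 of 80 windows did so (17.5%), against 33 of 325 in the middles (10.2%), with 6 on 3L, 4 on 2L, 2 on 3R and 2 on X. The outermost 3R window reached 12 only with the 5 peaks beyond 27900000 counted in. Windows with no peak made up 11.8% over the 4 arms, 11.1% in the middles and 3.75% in the ends, where there were 3, 2 on 2L and 1 at the tip of 3L. At the stricter 95th percentile of windows, 6.25% of the end windows were dense, against 5.43% over the 4 arms. No test was run on these shares.

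The densest window of any end was on 3L. Between 600001 and 700000 it held 24 peaks, the highest count of that arm and rank 4 among all 976 windows, and the window after it, up to 800000, held 17. These 200 kb also held the 2 strongest peaks of the end. Of the 41 peaks, 26 scored below 20 (63.4%, against 45% of the whole 3L end) and 24 were narrower than 500 bp (58.5%, against 38.3%), and 23 were both. Their median score was 14.15 and their median width 424 bp. Further in, between 1500001 and 1600000, 12 peaks had a median score of 53.07 and a median width of 1174.5 bp. The second densest 3L window, from 200001 to 300000, held 19 peaks and had 21.3% of its length covered.

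On 2L the densest windows were 200001 to 300000, with 18 peaks covering 23.4% of the window, and 500001 to 600000, with 15. On X they were 1900001 to 2000000 with 13 peaks and 500001 to 600000 with 12, the latter with a median width of 1425 bp and 18.1% covered. On 3R the outermost window, which runs from 27800001 to 27904648, and the one from 27500001 to 27600000 held 12 each. In the outermost 6 were the evenly spaced peaks, and in the other the median width was 1298.5 bp and 19.0% was covered. The median score was 14.40 in the densest 3L window and 21.31 in the second densest, and ran from 21.73 to 45.79 over the 6 densest windows of the other ends.

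Neighbouring peaks were spaced most widely in the 3R end. The median gap there was 8135 bp, against 4082 bp in the middle of 3R, whereas end and middle had 4800 and 5142 bp on 2L, 4177 and 4086 bp on 3L, and 4340 and 4469 bp on X. Gaps under 1 kb made up 27.9% of the gaps in the 3L end (24.4% in its middle), 24.5% on 3R (26.1%), 19.2% on 2L (23.8%) and 16.8% on X (29.1%). With such gaps closed, the 3L end fell into 130 groups, 9 of them of at least 3 peaks, the 2L end into 106 with 4, the X end into 100 with 3 and the 3R end into 75 with 4. The longest groups were of 6 peaks, the 3R tip and 3L:1329732-1336021, which reached a score of 85.54. The longest empty stretch between peaks of the same end was 226 kb on 2L, from 1184448 to 1410795, then 162 kb on 3R (26427791 to 26589926) and 151 kb on X (1407707 to 1559036). Between the peaks of the 3L end no stretch exceeded 65.4 kb (968538 to 1033892), although 123.8 kb at its tip had no peak. A further 3L stretch, from the peak that ends at 1964449 to the one that starts at 2228353, crosses the limit of the end and was not counted. It is longer than the 226 kb of 2L. In the middles, which are several times as long, the longest gaps measured 266058 bp on 2L, 252228 bp on 3L, 216139 bp on 3R and 332206 bp on X.

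The share of sequence under peaks followed the same order as the counts. Peaks covered 8.12% of the 3L end, 6.67% of the 2L end, 5.41% of the X end and 4.76% of the 3R end. The middles of these arms had 5.58%, 5.25%, 4.2% and 6.27%. The ends of 2L, 3L and X thus had more of their length under TBP peaks than their middles, and the end of 3R less, without a test of these shares.

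At the limit of 2 Mb, the peaks just inside and just outside the end of 2L were 2381 bp (score 22.61) and 441 bp (20.44), on 3L 732 bp (17.66) and 921 bp (32.58), on 3R 375 bp (26.83) and 3241 bp (79.45), and on X 698 bp (21.88) and 1156 bp (84.34). On 3L the first peak outside started at 2228353, well beyond the last inside at 1963718.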

How the data were processed

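Embryonic chromatin was precipitated for TBP and sequenced in 2 libraries, beside 2 of input DNA. The one deposited file is a peak list in GFF version 3, on FlyBase release 5 per the file headers, whose source field names MACS. BDGP5 is the build, and MACS2, BWA and CASAVA (1.7.0.3 and 1.7.0.2) are the tools, listed per the submitters' processing notes, which assign no roles. Thresholds, duplicate handling and any pooling of replicates were not given in the sources used here. The authors deposited a score for each peak, with its scale unstated. Depth per sample is unknown, so precision rests on peak numbers only.

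The limits of the ends, and the genes named for orientation, were chosen with earlier results of these data known. Peak centres were counted in 100 kb windows tiled from position 1 (2L, 3L, X) or from 27900000 (3R, 5 peaks beyond it joining the outermost window). Incomplete windows at the inner end were dropped. A quasi-Poisson model with one mean per arm and region (end, middle, other) and a shared dispersion gave ratios, 95% intervals and two-sided p-values. It was tried on simulated windows drawn independently of one another, which cannot show the effect of clustering that reaches across neighbouring windows. Neither windows nor peaks are biological replicates. Medians have order-statistic intervals. Alternatives varied windows, middle, end, peak selection and test. Peaks named are, per end, the 3 outermost, 5 highest scores, 3 widest, 2 densest windows and the longest empty stretch; the 3R row and the 3L 1500001 to 1600000 window were singled out after their values were seen. The software was statsmodels 0.14.6, scipy 1.17.1, matplotlib 3.10.9, pandas 2.3.3 and numpy 2.4.6 under Python 3.11.15.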

Additional observations from a re-analysis of the deposited data

How the results depend on the processing

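No paired analysis was possible because 1 list of peaks without values of single libraries was analysed, and no replicate could be left out. Leaving out the densest window of each end, or the 6 evenly spaced peaks of 3R, was chosen after seeing the data. Of 57 alternatives for end against middle density, 52 kept direction and side of the threshold and none turned the direction. The 5 others passed where the 100 kb fit had not: for 3L, 1.51 with a middle from 25% to 75%, 1.51 with the arm without 2 Mb at both ends as the middle, 1.73 with an end of 1 Mb and 1.43 by the exact test, and for 3R, 0.758 by the exact test. Over all settings the 3L ratio ran from 1.13 (end of 3 Mb) to 1.73 (end of 1 Mb) and the 3R ratio from 0.698 to 0.9. The exact binomial test gave the smallest adjusted p-values of these 2 arms, 0.00028 on 3L and 0.021 on 3R. The largest came from quasi-Poisson fits, with adjusted p = 0.51 on 3L and 0.7 on 3R (n = 976 windows). Of 39 alternatives for pairs of ends, 34 kept both. The exact test passed for 2L over 3L (0.728), 3L over 3R (1.82) and 3L over X (1.5), and 50 kb windows for 3L over 3R (1.82). Among peaks above the median score, 2L over X turned to 0.952 (adjusted p = 0.86, n = 976 windows). The difference between the 4 ratios missed the threshold in all 6 alternatives (F from 1.58 to 2.53). Median width of end over middle on 2L, 1.1, went to 0.884 with peaks within 1 kb merged and to 1.32 with an end of 1 Mb. Median score on 3L, 0.957, went to 0.687 with an end of 1 Mb, and on X, 1.21, to 0.887 among peaks above the median score. Dense windows, 17.5% of the end windows, went to 6.25% at the 95th percentile, by construction. Exact tests take peaks as independent, and the quasi-Poisson fits take windows as independent. Otherwise the cause was not tested. Unknown depth limits statements about weak or missing peaks.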
